A study of Homo sapiens with 4 samples.

Results

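Whole WI-38 cells were compared between a senescent culture at population doubling level 60 and a young culture at level 21, across all protein-coding genes. WI-38 is a much used cell line of fibroblasts from human fetal lung whose cultures divide only a limited number of times. Both cultures were grown in DMEM with serum, an antibiotic mixture and non-essential amino acids, and no other agent or genotype is named in the labels. Each state was sequenced as 1 library of total RNA, and a further pair of libraries came from mitoplasts, which are mitochondria without their outer membrane. The cultures are mass populations, and the sources used here do not give how senescence was scored. With 1 library per state, no difference below has a replicate check, no p-value is given, and culture, library and senescence cannot be told apart.

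The members are the coding genes with a measurable signal. Levels are FPKM, fragments scaled to transcript length and to the mapped total. Comparing levels between genes is limited, since many of the highest values lay in short transcripts. Of the 15 highest genes, 11 in the senescent and 5 in the young library had a lead transcript under 600 nt. The lead is the coding transcript with the highest FPKM, and rankings by abundance below carry this limit. For some genes named below the lead differed between the libraries, so different transcripts were compared, and this is not repeated for each gene. FPKM of transcripts annotated as protein-coding were summed per gene, which gave a value for 19018 genes. Of these, 6405 were at 5 FPKM or more in one library or the other and were kept, and 6019 were listed at 0 in both. The measure is the log2 ratio of senescent over young after adding 1 FPKM to each value, which understates the difference of low genes. A gene is called higher or lower at a log2 ratio of 1, a 2-fold difference on that scale. The 475 genes just inside the threshold, with a higher value of 5 to 6 FPKM, had ratios from −2.80 to 2.80 with a median of −0.09. The 582 genes just outside it, at 4 to 5 FPKM, ranged from −2.58 to 2.58 with a median of −0.05.

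Replicative senescence is a durable exit from the cell cycle that cultured fibroblasts reach after many divisions, with enlarged cells, altered chromatin and a changed set of secreted proteins. In dividing cells, E2F factors switch on genes of DNA synthesis before S phase. Genes of mitosis follow later through MYB, FOXM1 and NF-Y proteins, which act at a promoter element called the cell cycle genes homology region, or CHR, and at CCAAT boxes nearby. When p53 and p21 stop the cycle, the repressor complex DREAM sits on the same elements and keeps both groups of genes silent. Clustered histone genes, used to package new DNA, have short promoters with a TATA box and CCAAT boxes, and their mRNAs end in a stem-loop.

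Promoters of 6 genes are shown because their genes were past a ratio of 1 and they hold the motifs just described or, for ANKRD1, one named below. The sequences come from RefSeq on GRCh38.p14, are written 5′ to 3′ along the gene and end just before its start. Capitals mark the CHR, written TTTGAA or, on the opposite strand, TTCAAA. They also mark the CCAAT box, whose reverse complement is ATTGG, and the TATA box, searched as TATAAA. For ANKRD1 alone they mark GGAATG, the core bound by TEAD factors. CDC20 (chr1:43358851-43358980, plus strand) activates the anaphase-promoting complex, CCNB2 (chr15:59105016-59105145, plus) encodes cyclin B2, PLK1 (chr16:23678759-23678888, plus) encodes a mitotic kinase and CKS2 (chr9:89311065-89311194, plus) a subunit bound to cyclin-dependent kinases. H1-4 (chr6:26156199-26156328, plus) encodes a linker histone, and ANKRD1 (chr10:90921088-90921337, minus) an ankyrin repeat protein of muscle and wounded tissue that is a known target of the Hippo effectors YAP and TAZ.
CDC20: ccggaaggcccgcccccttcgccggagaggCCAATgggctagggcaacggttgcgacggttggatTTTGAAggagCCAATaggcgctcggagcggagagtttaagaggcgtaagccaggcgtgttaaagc
CCNB2: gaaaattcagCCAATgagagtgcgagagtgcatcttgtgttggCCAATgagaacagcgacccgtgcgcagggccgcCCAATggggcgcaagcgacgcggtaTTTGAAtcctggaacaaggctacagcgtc
PLK1: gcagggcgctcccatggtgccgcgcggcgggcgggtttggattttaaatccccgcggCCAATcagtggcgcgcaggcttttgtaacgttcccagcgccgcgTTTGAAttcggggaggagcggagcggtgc
CKS2: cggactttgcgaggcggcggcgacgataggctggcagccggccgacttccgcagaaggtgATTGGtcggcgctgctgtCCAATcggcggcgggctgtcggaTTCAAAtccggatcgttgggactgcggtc
H1-4: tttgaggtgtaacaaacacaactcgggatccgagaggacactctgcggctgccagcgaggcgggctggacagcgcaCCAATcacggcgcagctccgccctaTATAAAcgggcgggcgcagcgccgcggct
ANKRD1: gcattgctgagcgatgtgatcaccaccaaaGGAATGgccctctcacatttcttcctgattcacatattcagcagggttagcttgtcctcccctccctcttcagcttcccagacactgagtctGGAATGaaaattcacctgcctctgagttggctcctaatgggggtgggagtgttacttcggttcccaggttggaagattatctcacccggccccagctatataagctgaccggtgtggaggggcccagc
In CCNB2, PLK1 and CKS2 the CHR began 29 bases before the start, with a CCAAT box 54, 73 and 52 bases before it. CDC20 had its CHR 65 bases before the start, between CCAAT boxes at 100 and 55 bases. H1-4 had a TATA box at 29 bases and a CCAAT box at 54 bases. ANKRD1 held GGAATG at 220 and 128 bases. These are letter matches, and no binding was measured.

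Across the 6405 genes, 949 (14.8%) were higher in the senescent library and 1509 (23.6%) were lower, while 3947 (61.6%) lay within a ratio of 1. The median gene stood at −0.23, with quartiles at −0.94 and 0.50. These percentages are the background against which the counts of each group below are to be read. The scale itself was not fixed by the files: coding transcripts summed to 521099 FPKM in the young and 319139 in the senescent library, and without the mitochondrial genes to 350769 and 291290. Assembled transcripts, which carry no annotated identifier and count to no gene here, took 53.7% of all FPKM in the young and 76.2% in the senescent library. Setting the coding sums with mitochondrial genes equal moved the median by 0.76 and turned the split to 2274 higher and 818 lower. The mitochondrial genes held 32.7% of coding FPKM in the young and 8.73% in the senescent library, where 11 of 13 were listed at 0. Equal sums without them were not tried. A median ratio of 0 gave 1276 higher and 1199 lower, and an equal upper quartile 1220 and 1241. Directions of gene groups are therefore given against the median gene. Of 39 gene lists, 28 had a median below 0 as deposited and 9 under all 3 rescalings tried, which were the equal sum, a median ratio of 0 and an equal upper quartile.

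**Figure D1:**
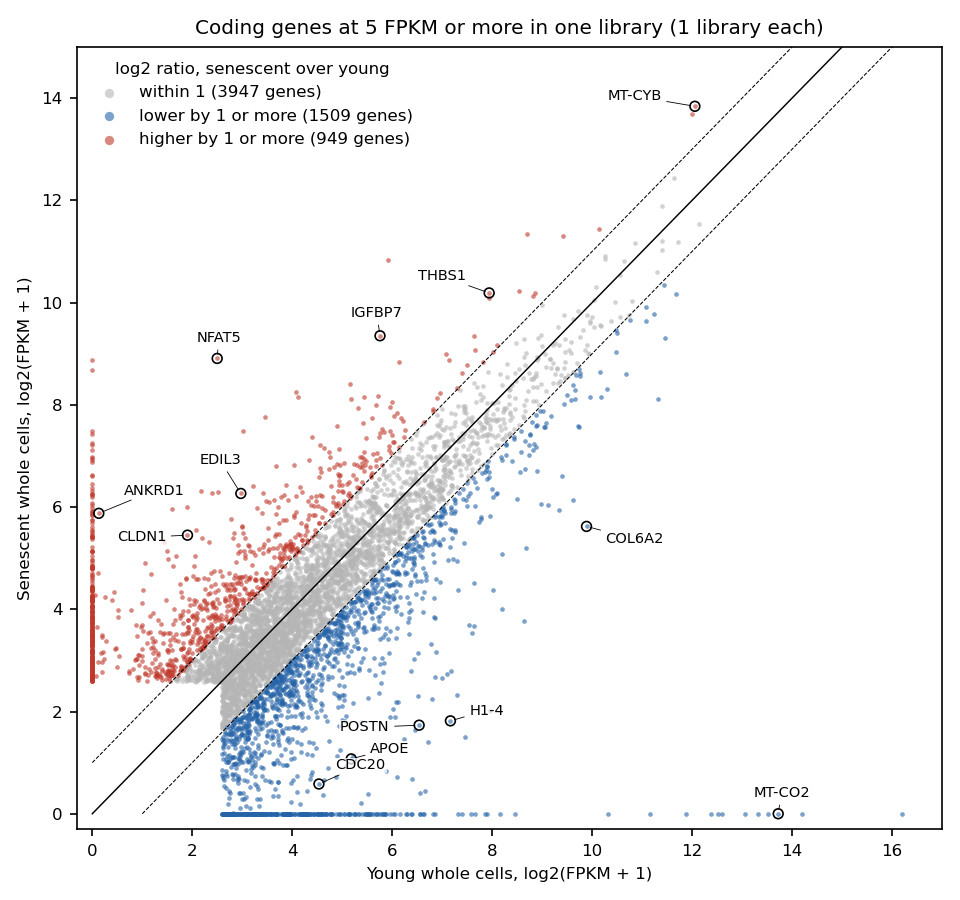
Each point is 1 of 6405 coding genes, with log2(FPKM + 1) in the young library on the x axis and in the senescent library on the y axis; the solid line marks equality and the dashed lines a ratio of 1 in either direction. The 949 higher genes lie above the upper dashed line, the 1509 lower genes lie below the lower one, and the lines of points on the axes are genes listed at 0 in one library.

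Exact zeros made up part of the largest differences. Of the genes kept, 301 were listed at 0 in the senescent and 260 in the young library. Of the 243 genes higher by a ratio of 3 or more, 41 were above 0 in both libraries, and of the 328 lower by 3 or more, 89 were. A zero in such files can be a failed or reassigned estimate, and no fold is given against one. The mitochondrial genome held such zeros: all 13 of its coding genes were kept, 11 of them were listed at 0 in the senescent library, and the other 2 were higher there. Whether these zeros were failed or reassigned estimates was not tested. MT-CYB, a subunit of respiratory complex III, stood at 4257 FPKM in the young library against 14663 in the senescent one, and MT-ND1, of complex I, had 4067 FPKM in young fibroblasts and 13185 in senescent ones. MT-CO2, a subunit of cytochrome c oxidase, measured 13518 FPKM in the young culture and was listed at 0 in the senescent one.

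Most fibroblast markers were well expressed in both libraries, though not all. COL1A1 measured 1501 FPKM in young cells and 846 in senescent ones, DCN stood at 895 FPKM in the young library against 706 in the senescent one and THY1 had 334 FPKM in young fibroblasts and 335 in senescent ones. The 14 listed fibroblast markers, of which 13 were kept, summed to 8463 FPKM in young and 4569 in senescent cells. COL6A3, a collagen VI chain, reached 411 FPKM in the young culture and 35.5 in the senescent one. LUM, or lumican, had only 0.950 and 4.83 FPKM, S100A4 19.9 and 6.54, and PDGFRB was listed at 0 in the young library and at 5.90 FPKM in the senescent one. With assembled transcripts the ratio of PDGFRB was −0.20. Blood and immune markers were close to absent, with 0 of 12 kept and sums of 1.46 and 2.13 FPKM, and PTPRC was listed at 0 in both libraries. Of the epithelial markers, EPCAM, KRT5 and SFTPC were listed at 0 in both. KRT18, which fibroblasts also express, measured 13.96 FPKM in young cells and 19.2 in senescent ones. KRT19 measured 5.21 FPKM in the young library and was listed at 0 in the senescent one, and KRT8 had 3.06 and 2.30 FPKM. Of 9 neural and glial markers 1 was kept. This was SNAP25, with 59.8 FPKM in young and 17.8 in senescent cells and a lead transcript of 492 nt. The endothelial markers CDH5 and KDR were listed at 0 and TEK stood at 28.8 FPKM in the young library against 24.8 in the senescent one. Of the 6 smooth muscle markers, 4 were kept: ACTG2 had 209.6 and 141 FPKM in young and senescent cells, CNN1 52.1 and 61.3, LMOD1 8.71 and 13.4, and SYNPO2 is given below. MYH11, the defining myosin of mature smooth muscle, was listed at 0 in both. The part of other cells in any result was not tested. In bulk RNA, fewer cells with a transcript and less of it per cell cannot be told apart.

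The 20 genes with the lowest ratios, among those at 10 FPKM or more and above 0 in both libraries, were led by linker histones, matrix proteins and mitotic proteins. H1-5 had 92.8 FPKM in young fibroblasts and 0.329 in senescent ones, a ratio of −6.14. H1-4 reached 143 FPKM in the young culture and 2.52 in the senescent one, and H1-3 measured 58.02 FPKM in young cells and 0.794 in senescent ones. These 3 genes encode the linker histones that bind DNA between nucleosomes.
Matrix proteins formed the second group. FBLN1, encoding fibulin-1 of elastic fibres and basement membranes, stood at 156 FPKM in the young library against 4.0001 in the senescent one. POSTN, encoding periostin, had 91.98 FPKM in young fibroblasts and 2.32 in senescent ones. TNC, encoding tenascin C, reached 110.2 FPKM in the young culture and 3.72 in the senescent one. PCOLCE, which helps trim the ends of procollagen, measured 126 FPKM in young cells and 5.32 in senescent ones, and COL6A2, a chain of collagen VI, stood at 946 FPKM in the young library against 48.2 in the senescent one. All 5 are secreted into the pericellular matrix, and each was lower in the senescent library. The heparan sulfate proteoglycan GPC5 had 23.9 FPKM in young fibroblasts and 0.574 in senescent ones.
Among the remaining genes, EIF4EBP1, the repressor of cap-dependent translation, reached 32.7 FPKM in the young culture and 0.923 in the senescent one. With assembled transcripts of its locus added, its ratio was −1.34 in place of −4.13. APOE, the lipid carrier apolipoprotein E, measured 35.3 FPKM in young cells and 1.10 in senescent ones. TNFRSF19, a receptor of the tumour necrosis factor family, stood at 135 FPKM in the young library against 5.63 in the senescent one, and TMEM158, a membrane protein first described as induced by RAS in senescence, had 194 FPKM in young fibroblasts and 10.6 in senescent ones. CDKN3, a phosphatase acting on cyclin-dependent kinases, reached 28.2 FPKM in the young culture and 0.644 in the senescent one. ANLN, encoding the anillin of the cytokinetic ring, measured 64.1 FPKM in young cells and 3.13 in senescent ones, and CDC20 stood at 22.2 FPKM in the young library against 0.497 in the senescent one. DAB2IP, a RAS GTPase-activating protein, had 105 FPKM in young fibroblasts and 1.65 in senescent ones, but its lead transcript was of 928 nt in the young and 5469 nt in the senescent library, so different transcripts were compared. ANLN had a ratio of −3.98, or −5.45 over transcripts of 600 nt or more. DAB2IP had a ratio of −5.32, or −4.19 with assembled transcripts.

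The 20 highest ratios were a mixed group of secreted, adhesion and signalling proteins. ANKRD1 reached 0.0945 FPKM in the young culture and 57.8 in the senescent one. IGFBP7, a secreted insulin-like growth factor binding protein, measured 53.1 FPKM in young cells and 652 in senescent ones. ITGBL1, a secreted protein with integrin-like repeats, stood at 15.8 FPKM in the young library against 304 in the senescent one, and EDIL3, a ligand of integrins in the matrix, had 6.85 FPKM in young fibroblasts and 75.95 in senescent ones. These 4 genes were each led by 1 transcript model in both libraries, and their ratios were 5.75, 3.59, 4.18 and 3.29.
Genes close to 0 in the young library made up part of the group. CST1, a secreted inhibitor of cysteine proteases, reached 0.0413 FPKM in the young culture and 18.4 in the senescent one. GDF6, a bone morphogenetic protein, measured 0.0620 FPKM in young cells and 11.5 in senescent ones. EDN1, encoding the vasoconstrictor endothelin-1, stood at 0.429 FPKM in the young library against 14.7 in the senescent one, and KISS1, encoding the kisspeptin peptide hormone, had 0.152 FPKM in young fibroblasts and 10.3 in senescent ones. No counting error can be given for such low values, since the depth of the libraries is unknown.
CLDN1, a tight junction protein, reached 2.74 FPKM in the young culture and 42.7 in the senescent one. OLR1, a scavenger receptor for oxidised lipoprotein, measured 1.25 FPKM in young cells and 24.7 in senescent ones. TMEM47, a small junctional membrane protein, stood at 2.02 FPKM in the young library against 61.3 in the senescent one, with a ratio of 4.36 that was 2.67 once assembled transcripts were added. PSG5, of the pregnancy-specific glycoproteins, had 4.27 FPKM in young fibroblasts and 76.5 in senescent ones, and the transcription factor SIM2 reached 1.80 FPKM in the young culture and 34.4 in the senescent one. Each of these 5 ratios was above 3. PSG5 had a ratio of 3.88, or 3.29 over all annotated transcripts. SIM2 had a ratio of 3.66, or 5.33 with assembled transcripts. The lead transcript of OLR1 was of 2462 nt in the young and 924 nt in the senescent library. For SIM2 the lengths were 4442 and 1465 nt, so for both genes different transcripts were compared.
Apart from KRT19 and SNAP25, which were not counted, 204 genes named in the text had a ratio past 1. Of these, 185 kept that call under each of 3 other sums of transcripts, and the exceptions are given beside their values. These sums took all annotated transcripts, coding and assembled transcripts, or coding transcripts of 600 nt or more.
Some of the 20 rest on few or changing transcripts. NFAT5, the transcription factor of the osmotic stress response, measured 4.65 FPKM in young cells and 479 in senescent ones, and 97.7% of the latter lay in a transcript of 653 nt. SEC31A, of the COPII coat, stood at 16.2 FPKM in the young library against 282 in the senescent one, with 89.8% of the latter in a transcript of 657 nt. In the young library the lead transcripts of NFAT5 and SEC31A were of 13067 and 3861 nt. ITGA3, the integrin alpha-3 chain, had 9.99 FPKM in young fibroblasts and 217 in senescent ones. Its lead transcript was of 4888 nt in the young and 827 nt in the senescent library. The ITGA3 ratio of 4.31 became 0.99 with assembled transcripts, below the threshold. ADAMTS19, a secreted metalloprotease, reached 2.72 FPKM in the young culture and 63.4 in the senescent one, and its ratio of 4.11 became 0.48 over all annotated transcripts, coding or not.

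**Figure D2:**
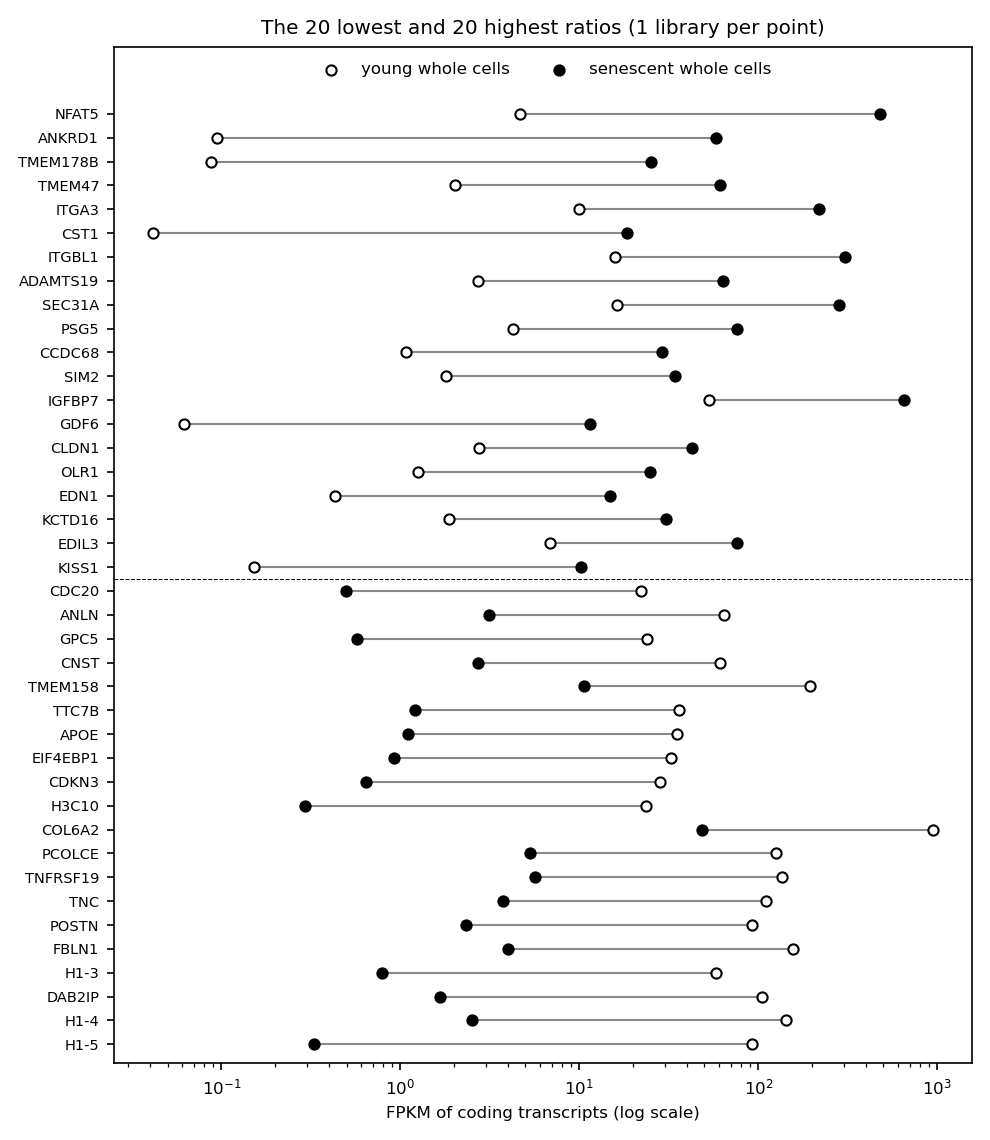
The x axis gives FPKM on a log scale and each row is 1 gene, with the young library as an open and the senescent library as a filled circle; the 20 highest ratios stand above the dashed line and the 20 lowest below it. The senescent values of the lowest genes run from 0.292 FPKM for H3C10 to 48.2 for COL6A2.

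Of the 39 gene lists, that of mitosis had the median furthest from the median gene. Of 83 listed kinetochore, spindle and cytokinesis genes, 45 were kept, 42 were lower and 0 were higher, against 23.6% and 14.8% of all genes. Their median ratio was −2.60. Relative to all genes it lay at −2.36, and at −2.46 after centring on GC content and length. The summed level of the 82 members found in the tables was 815 FPKM in young and 141 in senescent cells. 10 of them were listed at 0 in the senescent library. A list of cell division genes was already known to be lower in these data, so its direction is no independent evidence.
Kinases and regulators of mitotic entry were low. PLK1 measured 34.03 FPKM in young cells and was listed at 0 in senescent ones. AURKA, the centrosomal Aurora kinase, stood at 14.7 FPKM in the young library against 2.78 in the senescent one, and AURKB, the centromeric one, had 7.48 FPKM in young fibroblasts and 0.106 in senescent ones. CCNB1, encoding cyclin B1, reached 21.1 FPKM in the young culture and 2.99 in the senescent one, and CCNB2 measured 8.50 FPKM in young cells and 1.01 in senescent ones. The transcription factor FOXM1 measured 13.8 FPKM in the young library and was listed at 0 in the senescent one. AURKB had a ratio of −2.94, or −4.02 over all annotated transcripts. PLK1 had a ratio of −3.83 with assembled transcripts.
The anaphase machinery behaved likewise. UBE2C, the ubiquitin-conjugating partner of the anaphase-promoting complex, had 19.4 FPKM in young fibroblasts and 0.591 in senescent ones. PTTG1, the securin that restrains separase, measured 19.8 FPKM in the young culture and was listed at 0 in the senescent one. CKS2 measured 22.9 FPKM in young cells and 4.72 in senescent ones, and UBE2S, which extends ubiquitin chains for the same complex, stood at 71.4 FPKM in the young library against 14.1 in the senescent one. UBE2S kept the highest senescent level of these 4. PTTG1 had a ratio of −3.28 over all annotated transcripts.
Kinetochore parts were lower too. NDC80, which grips microtubule ends, had 7.23 FPKM in young fibroblasts and 0.574 in senescent ones, NUF2, its partner, measured 7.20 FPKM in the young culture and was listed at 0 in the senescent one, and CENPF measured 11.6 FPKM in young cells and 0.394 in senescent ones. SMC4, a condensin subunit, had a smaller ratio of −1.79. SMC4 had a ratio of −1.79, or −2.88 over all annotated transcripts.
Only 3 kept members were not lower by 1. CKAP2, a microtubule-associated protein, stood at 31.4 FPKM in the young library against 15.5 in the senescent one. BUB3, a checkpoint protein that also works in splicing, had 60.3 FPKM in young fibroblasts and 39.2 in senescent ones. ECT2, the exchange factor that starts the cleavage furrow, reached 21.96 FPKM in the young culture and 19.9 in the senescent one.

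DNA synthesis genes were lower by less. Of 63 listed, 22 were kept, 17 were lower and 1 was higher, with a median of −1.70. MCM5 and MCM4 are subunits of the replicative helicase: MCM5 measured 25.7 FPKM in young cells and 1.66 in senescent ones, and MCM4 stood at 15.4 FPKM in the young library against 1.12 in the senescent one. TYMS, which makes thymidylate, measured 44.1 FPKM in young fibroblasts and was listed at 0 in senescent ones, and PCNA, the sliding clamp, reached 21.4 FPKM in the young culture and 8.28 in the senescent one. The clamp kept the highest senescent level of these 4 genes. The one higher member was E2F7, a repressor among the E2F factors, which measured 1.65 FPKM in young cells and 10.4 in senescent ones. Clustered histone genes were lower in 30 of 32 kept and higher in 0, with a median of −4.48. MCM4 had a ratio of −2.95, or −2.15 over all annotated transcripts. MCM5 had a ratio of −3.33, or −2.57 over all annotated transcripts and −2.35 over transcripts of 600 nt or more.

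Motif shares differed more between these groups than between all higher and all lower genes. The CHR letters were found on either strand in the 250 bases before the start of 13.6% of 27195 RefSeq promoters and of 7.88% of the 5278 kept genes with a promoter matched by symbol. Among kept mitotic genes, 19 of 38 promoters (50.0%) held it, and 18 of 38 (47.4%) held both CHR and CCAAT, against 3.32% of all kept genes. Over all 69 promoters of the mitotic list, kept or not, 43.5% held the CHR.
For all lower genes the CHR share was 9.04%, and for higher genes 8.40%. Outside the mitotic, replication and histone lists, lower genes held it in 7.21%. Replication promoters rarely held it, at 5.56% of 18 kept, and instead held E2F-like letters in 27.8%, against 4.07% of kept genes. The letters searched for E2F were TTTCCCGC, then TTTGGCGC and also TTTCGCGC. Of the 29 histone promoters, 86.2% held CCAAT and 72.4% a TATA box, where kept genes held them in 35.5% and 5.57%. GGAATG was found before 9.69% of higher genes and 9.23% of kept genes. The motif windows of the mitotic genes had a mean GC content of 59.7% and those of kept genes 64.8%, and the part of GC content in these shares was not tested.

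**Figure D3:**
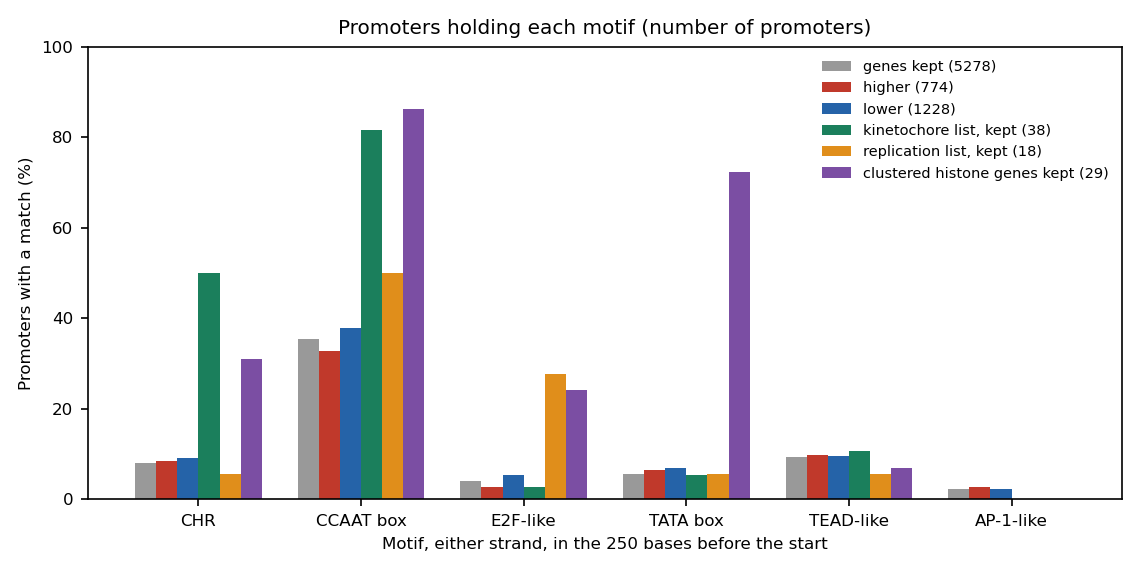
Bars give the percentage of promoters with at least 1 match to each motif on either strand within 250 bases before the start, for kept genes, higher genes, lower genes and 3 gene groups, with the number of promoters in the legend. The green CHR bar of the mitotic list stands at 50.0% beside 7.88% for kept genes, and the purple TATA bar of the histone genes at 72.4% beside 5.57%.

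Chromatin proteins were lower as a group. Of 43 kept regulators, 23 were lower and 2 higher, with a median of −1.08. Relative to all genes it lay at −0.85, and at −0.57 after GC and length centring. Histone variants used outside S phase were among them. H2AZ1, encoding the variant H2A.Z placed at promoters, stood at 48.6 FPKM in the young library against 7.31 in the senescent one, and H3-3B, encoding H3.3, had 116 FPKM in young fibroblasts and 23.04 in senescent ones. Their chaperones were lower as well, as ANP32E, which removes H2A.Z, reached 77.4 FPKM in the young culture and 17.9 in the senescent one and HIRA, which deposits H3.3, measured 10.9 FPKM in young cells and 2.48 in senescent ones. CBX5, encoding heterochromatin protein HP1 alpha, stood at 19.9 FPKM in the young library against 5.31 in the senescent one, and EHMT2, a methyltransferase for lysine 9 of histone H3, had 10.7 FPKM in young fibroblasts and 4.04 in senescent ones. MACROH2A1, encoding a variant known from senescence-associated heterochromatin, was close to equal: it reached 27.9 FPKM in the young culture and 27.4 in the senescent one. Polycomb subunits SUZ12 and EED had ratios of −0.58 and −0.26. H2AZ1 had a ratio of −2.58, or −3.23 with assembled transcripts.

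Transcription factors that give lung fibroblasts their mesenchymal identity were lower in 15 of 26 kept and higher in 3. The median was −1.81. TWIST1 measured 11.9 FPKM in young cells and 2.06 in senescent ones, and TWIST2 stood at 101 FPKM in the young library against 22.8 in the senescent one. Both are basic helix-loop-helix factors of mesenchyme. The homeobox factor PRRX1 had 17.2 FPKM in young fibroblasts and 1.57 in senescent ones. RUNX2, the bone-forming factor, reached 29.6 FPKM in the young culture and 3.78 in the senescent one, and NFIX, of the nuclear factor I family, measured 79.5 FPKM in young cells and 14.4 in senescent ones. Lung mesenchyme factors were closer together: FOXF1 stood at 37.6 FPKM in the young library against 28.03 in the senescent one and TCF21 had 14.6 FPKM in young fibroblasts and 10.8 in senescent ones. ZEB1, a repressor of epithelial genes, went the other way and reached 51.5 FPKM in the young culture and 289 in the senescent one. TBX5 measured 14.4 FPKM in young cells and 31.4 in senescent ones. The list depended on the filter: with genes at 1 FPKM or more its median relative to all genes was −0.72 in place of −1.57. ZEB1 also turned to −2.02 once assembled transcripts were added. PRRX1 had a ratio of −2.82, or −4.04 over all annotated transcripts.

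Immediate early factors, which answer serum and stress within minutes, were lower in 7 of 17 and higher in 1. CEBPD stood at 40.8 FPKM in the young library against 2.46 in the senescent one, EGR1 had 29.3 FPKM in young fibroblasts and 3.28 in senescent ones and JUNB reached 20.2 FPKM in the young culture and 3.72 in the senescent one. CEBPB, a factor known to drive the senescent secretome, measured 33.4 FPKM in young cells and 6.58 in senescent ones. AP-1 members were otherwise close, with FOSL1 at −0.42 and JUND at −0.02, and MYC stood at 20.8 FPKM in the young library against 15.9 in the senescent one. KLF2, a factor induced by fluid shear in vessels, was the exception and had 3.21 FPKM in young fibroblasts and 23.04 in senescent ones, but only in a transcript under 600 nt, without which its ratio was 0.02. Of 14 kept nuclear receptor and clock genes, 4 (28.6%) were lower and 0 higher, against 23.6% and 14.8% of all genes. Their median lay close to the median gene, at −0.13 relative to it. PPARG, the receptor that drives fat cell formation, reached 469.8 FPKM in the young culture and 143 in the senescent one, although the fat cell genes ADIPOQ, FABP4 and LEP were listed at 0 in both libraries. The lead PPARG transcript was shorter than 600 nt.

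RNA processing was lower at most of its steps. Of 52 kept splicing factors, 22 were lower and 0 higher, with a median of −0.88. Core spliceosome proteins were among them: SNRPD1, of the Sm ring, measured 259.8 FPKM in young cells and 71.96 in senescent ones, and SNRNP70, of the U1 particle, stood at 112 FPKM in the young library against 32.96 in the senescent one. U2AF1 and U2AF2 recognise the 3′ splice site, and both were lower: U2AF1 had 88.01 FPKM in young fibroblasts and 18.7 in senescent ones, and U2AF2 reached 57.5 FPKM in the young culture and 11.5 in the senescent one. Serine-arginine rich proteins differed among themselves, with SRSF9 at −0.69 and SRSF6 at 0.16. TRA2B, a splicing enhancer protein, measured 44.5 FPKM in young cells and 3.81 in senescent ones. MBNL1, a muscleblind protein that regulates splicing in differentiated cells, stood at 1221 FPKM in the young library against 1933 in the senescent one. TRA2B had a ratio of −3.24, or −1.66 with assembled transcripts.
Heterogeneous nuclear ribonucleoproteins and other mRNA-binding proteins were lower in 24 of 47 and higher in 4, with a median of −1.03. HNRNPA1 had 292 FPKM in young fibroblasts and 15.05 in senescent ones, HNRNPD, also called AUF1 and known to speed mRNA decay, reached 555 FPKM in the young culture and 64.6 in the senescent one and HNRNPH1 measured 374 FPKM in young cells and 102 in senescent ones. YBX1, a cold shock domain protein of mRNA particles, stood at 425 FPKM in the young library against 128 in the senescent one. HNRNPA1 has many near-identical pseudogenes, so its reads may have been shared with copies. ELAVL1, or HuR, which protects AU-rich mRNAs, was among the higher ones and had 3.65 FPKM in young fibroblasts and 9.18 in senescent ones. The lead ELAVL1 transcript was of 6015 nt in the young and 856 nt in the senescent library, so different transcripts were compared. HNRNPA1 had a ratio of −4.19, or −2.23 over all annotated transcripts and −3.17 over transcripts of 600 nt or more. HNRNPH1 had a ratio of −1.87, or −1.04 over all annotated transcripts and −3.62 over transcripts of 600 nt or more.
Nucleolar proteins were lower in 17 of 49 and higher in 2, with a median of −0.77. TCOF1, a cofactor of RNA polymerase I, reached 65.8 FPKM in the young culture and 29.4 in the senescent one, RRS1, a ribosome assembly factor, measured 33.5 FPKM in young cells and 7.46 in senescent ones and NHP2, of the box H/ACA particles, stood at 59.4 FPKM in the young library against 15.4 in the senescent one. FBL, the fibrillarin that methylates ribosomal RNA, measured 44.2 FPKM in young fibroblasts and was listed at 0 in senescent ones. NPM1, or nucleophosmin, reached 294 FPKM in the young culture and 120.0 in the senescent one, with a ratio of −1.28 that was −0.47 over transcripts of 600 nt or more. Genes named RPL and RPS, the cytosolic ribosomal proteins, had medians of −0.97 over 46 and −1.02 over 32 genes, with 21 and 16 lower. FBL had a ratio of −2.66 with assembled transcripts.
Translation factors lay nearer to the median gene, with 8 of 44 lower, 4 higher and a median of −0.53, which turned to 0.15 under the equal sum. EIF3G, of the initiation complex eIF3, measured 91.5 FPKM in young cells and 36.7 in senescent ones.
Of the nuclear pore and transport genes, 7 of 33 were lower and 2 higher, a lower share of 21.2% near the 23.6% of all genes. RAN, the GTPase that gives transport its direction, stood at 80.2 FPKM in the young library against 13.2 in the senescent one, and RANBP1, its cofactor, had 84.5 FPKM in young fibroblasts and 29.5 in senescent ones. KPNA2, an adaptor of the classical importin, reached 45.4 FPKM in the young culture and 19.1 in the senescent one. XPO1, the main exporter of proteins, measured 16.9 FPKM in young cells and 26.9 in senescent ones, and the nucleoporin NUP153 stood at 7.23 FPKM in the young library against 13.8 in the senescent one. RANGAP1, which switches RAN off, had 9.79 FPKM in young fibroblasts and 20.6 in senescent ones. RAN had a ratio of −2.52, or −1.73 over all annotated transcripts and −1.91 over transcripts of 600 nt or more.

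**Figure D4:**
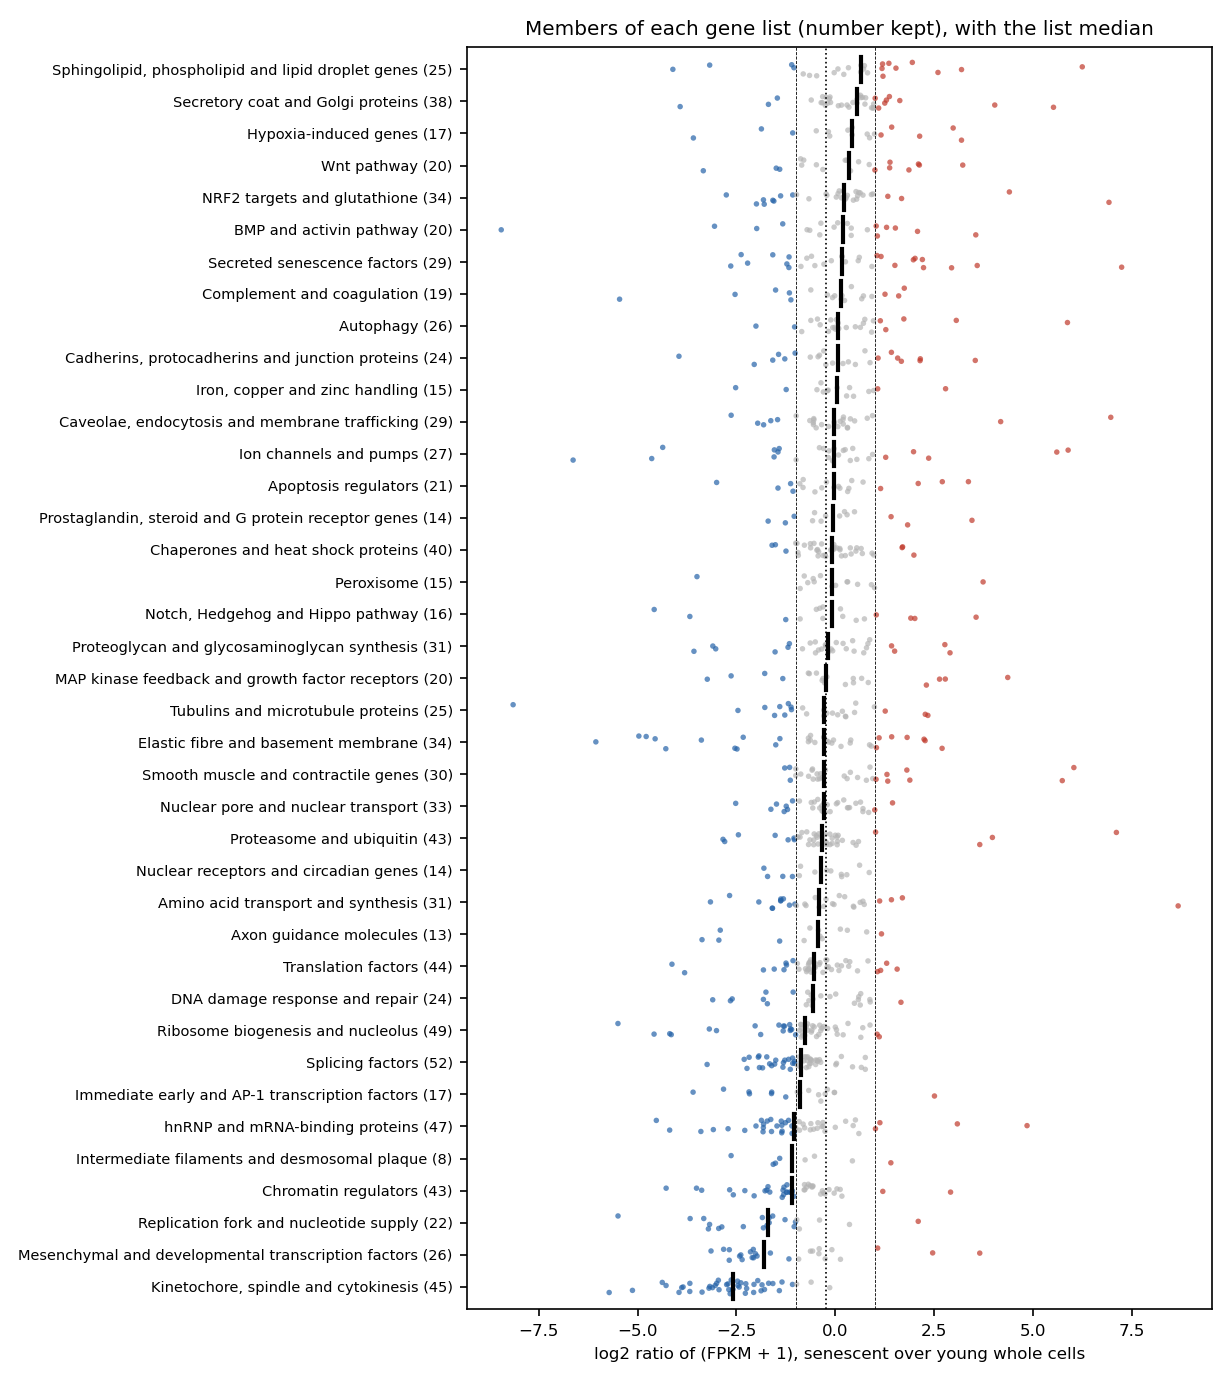
Each row is 1 of 39 gene lists with the number of kept members in brackets, each point is 1 gene, the x axis is the log2 ratio, black bars are list medians and the dotted line is the median of all kept genes at −0.23. The mitotic list at the bottom has 42 of 45 points beyond −1, and the lipid and secretory lists at the top have medians of 0.65 and 0.55.

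Protein quality control held few called genes. Proteasome and ubiquitin genes were lower in 7 of 43 and higher in 4, with a median of −0.33. Immunoproteasome parts were among the lower ones: PSMB8 measured 6.15 FPKM in the young culture and was listed at 0 in the senescent one, PSMB9 measured 5.94 FPKM in young cells and was listed at 0 in senescent ones and the activator subunit PSME1 stood at 66.97 FPKM in the young library against 11.4 in the senescent one. Of the chaperones, 3 of 40 were lower and 3 higher. Those higher were small heat shock proteins and a cochaperone. HSPB8 had 7.36 FPKM in young fibroblasts and 32.3 in senescent ones, the cochaperone BAG2 reached 3.92 FPKM in the young culture and 14.9 in the senescent one and CRYAB, or alpha-B crystallin, measured 6.64 FPKM in young cells and 23.9 in senescent ones. The CRYAB level lay in transcripts under 600 nt, and longer ones were listed at 0 in both libraries. HSPB1 was close to equal, with 594 and 577 FPKM. Autophagy genes were higher in 5 of 26 and lower in 2. TP53INP2, which moves from the nucleus to autophagosomes, stood at 4.25 FPKM in the young library against 16.5 in the senescent one. ATG16L1, which places LC3 on membranes, had 17.2 FPKM in young fibroblasts and 3.53 in senescent ones, with a ratio of −2.01 that was −0.95 over all annotated transcripts. PSME1 had a ratio of −2.45, or −1.86 with assembled transcripts.

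The secretory pathway stood above the median gene. Coat, cargo receptor and Golgi proteins had a median of 0.55, with 8 of 38 higher and 3 lower, so most of the shift lay below a ratio of 1. Retrieval of escaped endoplasmic reticulum proteins showed it: KDELR1 reached 49.96 FPKM in the young culture and 121 in the senescent one, KDELR2 measured 82.1 FPKM in young cells and 160.5 in senescent ones and KDELR3 was listed at 0 in the young library and measured 45.04 FPKM in the senescent one. Subunits of the COPI coat were COPB1, which had 13.5 FPKM in young fibroblasts and 36.5 in senescent ones, and COPB2, which reached 33.2 FPKM in the young culture and 63.6 in the senescent one. ARF4, a small GTPase of the Golgi, measured 26.5 FPKM in young cells and 84.5 in senescent ones. With assembled transcripts added, the ratio of KDELR1 was 0.09 in place of 1.25 and that of ARF4 0.78 in place of 1.64. Genes whose symbols start with SEC had a median of 0.54 over 19 genes. This group has a low GC content, with a median of 45.6% in lead transcripts, and its median lay 0.79 above that of all genes and 0.42 above it after centring on GC and length.

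Lipid genes had the highest median of the 39 lists on the scale used here. With assembled transcripts, or with genes at 10 FPKM or more, that of hypoxia genes was higher, at 0.93 against 0.56 and at 1.09 against 0.96 relative to all genes. Sphingolipid, phospholipid and lipid droplet genes were higher in 9 of 25 and lower in 4, with a median of 0.65. Relative to all genes it lay at 0.89, and at 0.86 after centring on GC and length. Enzymes at successive steps of ceramide synthesis were higher. SPTLC1 and SPTLC2 form the serine palmitoyltransferase that starts it: SPTLC1 stood at 6.97 FPKM in the young library against 17.4 in the senescent one, and SPTLC2 had 2.63 FPKM in young fibroblasts and 7.34 in senescent ones. CERS2, a ceramide synthase, reached 12.4 FPKM in the young culture and 33.5 in the senescent one, and DEGS1, which puts in the double bond of ceramide, measured 7.02 FPKM in young cells and 47.7 in senescent ones. With assembled transcripts added, the ratios of SPTLC2, CERS2 and DEGS1 were 0.30, 0.53 and 0.87 in place of 1.20, 1.36 and 2.60. Both named genes that use ceramide were higher too. SGMS2, a sphingomyelin synthase, stood at 28.7 FPKM in the young library against 114 in the senescent one, and ASAH1, the acid ceramidase, had 6.22 FPKM in young fibroblasts and 19.98 in senescent ones. Lipid carriers were lower: FABP5, which binds fatty acids, reached 21.2 FPKM in the young culture and 1.45 in the senescent one, and ABCA1, which exports cholesterol, measured 10.2 FPKM in young cells and 4.23 in senescent ones.

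Amino acid genes were mixed. PHGDH, which opens serine synthesis, stood at 32.6 FPKM in the young library against 2.77 in the senescent one, PSAT1, the next enzyme, had 14.6 FPKM in young fibroblasts and 5.98 in senescent ones and ASNS, or asparagine synthetase, reached 12.4 FPKM in the young culture and 3.45 in the senescent one. Carriers were mixed. SLC38A2, for neutral amino acids, measured 39.9 FPKM in young cells and 109 in senescent ones, a ratio of 1.42 that was 0.64 over all annotated transcripts. SLC1A1, for glutamate, stood at 1.82 FPKM in the young library against 8.17 in the senescent one, and the exchanger SLC7A5 had 13.6 FPKM in young fibroblasts and 4.62 in senescent ones. In all, 11 of 31 were lower and 4 higher.
Genes known to be induced by low oxygen were mixed. SLC2A1, the glucose carrier GLUT1, reached 8.25 FPKM in the young culture and 83.8 in the senescent one, PPP1R3C, which targets a phosphatase to glycogen, measured 4.01 FPKM in young cells and 38.7 in senescent ones and HIF1A stood at 33.2 FPKM in the young library against 67.2 in the senescent one. VEGFA, the vascular growth factor, had 82.1 FPKM in young fibroblasts and 5.91 in senescent ones, with a ratio of −3.59 that was −0.78 over transcripts of 600 nt or more. LDHA, lactate dehydrogenase, reached 114 FPKM in the young culture and 103 in the senescent one. The 17 kept genes held 5 higher and 3 lower. SLC2A1 had a ratio of 3.20, or 1.86 with assembled transcripts.
Among targets of NRF2 and glutathione enzymes, 8 of 34 were lower and 4 higher. TKT, or transketolase, of the pentose phosphate pathway, measured 142 FPKM in young cells and 46.7 in senescent ones. GPX4, which repairs oxidised membrane lipids, stood at 146 FPKM in the young library against 40.8 in the senescent one, and HMOX1, haem oxygenase, had 12.8 FPKM in young fibroblasts and 3.70 in senescent ones. PRDX6, a peroxiredoxin with phospholipase activity, reached 53.1 FPKM in the young culture and 173 in the senescent one. NQO1, a common marker of NRF2 activity, measured 76.5 FPKM in young cells and 90.1 in senescent ones, a ratio of 0.23. Iron genes were near the median gene, with 2 of 15 higher and 2 lower. FTL, the light chain of ferritin, stood at 2704 FPKM in the young library against 2361 in the senescent one. SLC40A1, the iron exporter ferroportin, had 38.4 FPKM in young fibroblasts and 76.3 in senescent ones. Of 15 peroxisome genes, 1 was higher and 1 lower, and both of these were listed at 0 in one library.

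Signalling genes were mixed. In the Wnt pathway, 7 of 20 were higher and 3 lower. WNT16 reached 2.08 FPKM in the young culture and 27.8 in the senescent one, WNT5A measured 43.6 FPKM in young cells and 162 in senescent ones and WNT2B stood at 5.46 FPKM in the young library against 15.8 in the senescent one, all of them secreted ligands. WNT5B, the most abundant ligand, had 747 FPKM in young fibroblasts and 537 in senescent ones, but over transcripts of 600 nt or more it was listed at 0 in the young library and had 18.5 FPKM in the senescent one. The secreted antagonists DKK2 and DKK3 were also higher: DKK2 reached 0.980 FPKM in the young culture and 7.53 in the senescent one, and DKK3 measured 41.3 FPKM in young cells and 109.7 in senescent ones. Among receptors, LRP6 stood at 2.17 FPKM in the young library against 12.9 in the senescent one and FZD1 had 6.16 FPKM in young fibroblasts and 1.71 in senescent ones. LRP6 had a ratio of 2.13, or 1.31 with assembled transcripts.
In the BMP and activin pathway, 6 of 20 were higher and 4 lower. INHBA, which encodes the activin A subunit, reached 10.4 FPKM in the young culture and 47.5 in the senescent one, and NOG, the BMP antagonist noggin, measured 3.28 FPKM in young cells and 11.3 in senescent ones. GREM1, another antagonist, measured 349 FPKM in the young library and was listed at 0 in the senescent one, although with assembled transcripts its ratio was 2.31. SMAD1, which carries the BMP signal, had 55.5 FPKM in young fibroblasts and 5.81 in senescent ones, and its target ID1 reached 28.2 FPKM in the young culture and 10.6 in the senescent one. FST, or follistatin, which binds activin, measured 77.6 FPKM in young cells and 103 in senescent ones.
Of the Notch, Hedgehog and Hippo genes, 4 of 16 were higher and 3 lower. CCN2, or connective tissue growth factor, stood at 135 FPKM in the young library against 511 in the senescent one, and CCN1 had 127 FPKM in young fibroblasts and 184 in senescent ones. The coactivator YAP1 reached 114 FPKM in the young culture and 81.4 in the senescent one. JAG1, a Notch ligand, measured 0.669 FPKM in young cells and 5.75 in senescent ones.
Of the growth factor receptors and their feedback inhibitors, 4 of 20 were higher and 4 lower. SPRY4, an inhibitor that growth factors induce against themselves, was listed at 0 in the young library and measured 19.6 FPKM in the senescent one. DUSP6, a phosphatase for ERK, had 4.43 FPKM in young fibroblasts and 25.9 in senescent ones, but over transcripts of 600 nt or more its ratio was −0.11. EPHB4, a receptor for ephrin-B2, reached 12.7 FPKM in the young culture and 1.21 in the senescent one. Axon guidance molecules, which fibroblasts use in migration, were lower in 4 of 13 and higher in 1. SLIT2 measured 503 FPKM in young cells and 66.1 in senescent ones, NRP1 stood at 49.7 FPKM in the young library against 5.59 in the senescent one and NRP2 had 90.6 FPKM in young fibroblasts and 7.86 in senescent ones. The neuropilins are co-receptors for semaphorins and VEGF, and ROBO1, a receptor for SLIT2, reached 16.9 FPKM in the young culture and 5.76 in the senescent one. ROBO2 measured 52.6 FPKM in young cells and 92.1 in senescent ones. Genes of prostaglandins, steroids and G protein signalling held 3 higher and 3 lower of 14. The cyclic nucleotide phosphodiesterases PDE5A and PDE1C had ratios of 1.41 and 1.83. PTGER2, a receptor for prostaglandin E2, stood at 5.96 FPKM in the young library against 1.15 in the senescent one. EPHB4 had a ratio of −2.63, or −2.05 with assembled transcripts. NRP1 had a ratio of −2.94, or −2.06 with assembled transcripts. NRP2 had a ratio of −3.37, or −1.40 over all annotated transcripts and −1.64 over transcripts of 600 nt or more. SLIT2 had a ratio of −2.91, or −1.90 over transcripts of 600 nt or more. SPRY4 had a ratio of 2.88 with assembled transcripts.

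Cell contacts were mixed. Of 24 cadherins and junction genes, 7 were higher and 6 lower. CDH6 had 47.9 FPKM in young fibroblasts and 130.2 in senescent ones, ALCAM, an adhesion molecule of the immunoglobulin family, reached 40.9 FPKM in the young culture and 124 in the senescent one and TJP1, the tight junction scaffold ZO-1, measured 27.03 FPKM in young cells and 58.5 in senescent ones. CDH11, the cadherin typical of mesenchyme, stood at 25.9 FPKM in the young library against 24.7 in the senescent one. ICAM1, which binds leukocytes, had 33.2 FPKM in young fibroblasts and 10.5 in senescent ones, and PCDH18 reached 67.8 FPKM in the young culture and 15.6 in the senescent one.
The cytoskeleton differed by filament. Tubulin genes were lower in 9 of 25 and higher in 3. TUBA1B measured 347 FPKM in young cells and 159 in senescent ones, and TUBB4B stood at 187 FPKM in the young library against 76.6 in the senescent one. STMN1, which takes tubulin apart, had 34.8 FPKM in young fibroblasts and 11.4 in senescent ones, and TUBA4A, a minor alpha-tubulin, reached 3.98 FPKM in the young culture and 23.2 in the senescent one. Tubulins and actins have close copies, so reads could have been shared between them. Intermediate filament genes were lower in 4 of 8. VIM, or vimentin, the main one of fibroblasts, measured 3262 FPKM in young cells and 1144 in senescent ones. LMNA, or lamin A, stood at 95.3 FPKM in the young library against 31.5 in the senescent one, with a ratio of −1.57 that was −0.31 over all annotated transcripts. TUBA4A had a ratio of 2.28, or 2.97 over all annotated transcripts.
Actin-based contractile genes centred on the median gene, with 7 of 30 higher and 3 lower. CALD1, or caldesmon, had 683 FPKM in young fibroblasts and 2533 in senescent ones, and TPM1, a tropomyosin, reached 452 FPKM in the young culture and 1121 in the senescent one. SYNPO2, of actin bundles, measured 9.63 FPKM in young cells and 36.4 in senescent ones. ACTA2, the actin of myofibroblasts, stood at 199 FPKM in the young library against 344 in the senescent one. The contractile genes did not move as 1 block.
Of 29 genes of caveolae and endocytosis, 2 were higher and 5 lower. CAV1, the coat protein of caveolae, had 451 FPKM in young fibroblasts and 323 in senescent ones, a ratio of −0.48. DNM2, the dynamin that cuts vesicles from the membrane, reached 114 FPKM in the young culture and 17.6 in the senescent one, and EHD2, which holds caveolae at the surface, measured 178 FPKM in young cells and 64.3 in senescent ones. DNM2 had a ratio of −2.63, or −1.91 with assembled transcripts and −1.05 over transcripts of 600 nt or more.

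Matrix genes differed in both directions within 1 list. Of 34 elastic fibre and basement membrane genes, 7 were higher and 11 lower. THBS1, or thrombospondin-1, an activator of TGF-beta, stood at 245 FPKM in the young library against 1166 in the senescent one. EFEMP1, or fibulin-3, had 18.8 FPKM in young fibroblasts and 68.9 in senescent ones, in contrast to FBLN1 and to EMILIN1, which reached 56.6 FPKM in the young culture and 10.5 in the senescent one. The crosslinking enzymes LOX and LOXL2 were higher: LOX measured 43.5 FPKM in young cells and 119 in senescent ones and LOXL2 stood at 33.8 FPKM in the young library against 74.3 in the senescent one. COL18A1, encoding collagen XVIII, had 36.5 FPKM in young fibroblasts and 5.70 in senescent ones. LTBP1, which stores latent TGF-beta, reached 69.4 FPKM in the young culture and 459 in the senescent one, but its direction depended on the transcripts summed: its ratio of 2.71 was −3.72 with assembled transcripts and −0.17 over those of 600 nt or more.
Proteoglycans were mixed as well, with 4 of 31 higher and 6 lower. SDC2 measured 30.98 FPKM in young cells and 84.97 in senescent ones, and SDC1 stood at 12.2 FPKM in the young library against 0.542 in the senescent one; both are syndecans. GPC4 had 0.141 FPKM in young fibroblasts and 6.81 in senescent ones, and GPC6 reached 115 FPKM in the young culture and 13.3 in the senescent one, both glypicans anchored to the membrane. EXT1, which polymerises heparan sulfate, measured 21.9 FPKM in young cells and 63.96 in senescent ones. CD44, the hyaluronan receptor, was the most abundant member and stood at 3199 FPKM in the young library against 5543 in the senescent one, a ratio of 0.79 that was 1.91 over transcripts of 600 nt or more.
Among secreted factors known from senescent cells, 10 of 29 were higher and 7 lower, the median being 0.18. ANGPT1, or angiopoietin-1, had 5.62 FPKM in young fibroblasts and 25.1 in senescent ones, CCL2, a chemokine for monocytes, reached 19.1 FPKM in the young culture and 56.2 in the senescent one and EREG, an EGF receptor ligand, measured 0.751 FPKM in young cells and 6.11 in senescent ones. HGF, the hepatocyte growth factor, stood at 81.8 FPKM in the young library against 14.9 in the senescent one, and IGFBP6 had 80.2 FPKM in young fibroblasts and 16.5 in senescent ones. TIMP1, the most abundant member and an inhibitor of metalloproteases, reached 2171 FPKM in the young culture and 966 in the senescent one. IGFBP3 measured 22.6 FPKM in young cells and 108 in senescent ones, and IGFBP4 stood at 312 FPKM in the young library against 373 in the senescent one, so the binding proteins of insulin-like growth factors were not alike. IGFBP3 had a ratio of 2.21, or 3.06 with assembled transcripts. IGFBP6 had a ratio of −2.22, or −1.52 over transcripts of 600 nt or more.
In complement and coagulation, F3, or tissue factor, which starts clotting, had 64.5 FPKM in young fibroblasts and 219 in senescent ones. CD59, which blocks the membrane attack complex, reached 63.9 FPKM in the young culture and 155 in the senescent one. TFPI2, a protease inhibitor of the tissue factor pathway, measured 22.7 FPKM in young cells and 3.10 in senescent ones. CLU, or clusterin, stood at 211 FPKM in the young library against 202 in the senescent one. The group held 3 higher and 5 lower of 19.

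Channels, death and repair genes complete the account. Of 27 channels and pumps, 5 were higher and 7 lower. SCN9A, a sodium channel known from pain neurons, had 3.73 FPKM in young fibroblasts and 23.4 in senescent ones. TRPA1, an irritant-sensing channel, reached 57.3 FPKM in the young culture and 19.1 in the senescent one. The calcium pump ATP2A2 differed little, at a ratio of −0.17. SCN9A had a ratio of 2.37, or 1.63 with assembled transcripts. TRPA1 had a ratio of −1.54, or −4.47 over all annotated transcripts.
Apoptosis regulators held 4 higher and 4 lower of 21. TNFRSF10D, a decoy receptor for TRAIL, measured 17.4 FPKM in young cells and 77.9 in senescent ones. MCL1, an anti-apoptotic BCL-2 relative, stood at 49.8 FPKM in the young library against 23.2 in the senescent one. BIRC5, or survivin, which also works in mitosis, had 8.78 FPKM in young fibroblasts and 0.222 in senescent ones. BIRC5 had a ratio of −2.11 over all annotated transcripts.
Repair genes were lower in 7 of 24 and higher in 1. PARP1, which senses strand breaks, reached 19.3 FPKM in the young culture and 5.02 in the senescent one, and LIG1, the replicative ligase, measured 6.89 FPKM in young cells and 1.24 in senescent ones. RRM2B, a p53-induced subunit of ribonucleotide reductase, stood at 1.09 FPKM in the young library against 5.63 in the senescent one. XRCC6, or Ku70, which binds broken ends, had 47.3 FPKM in young fibroblasts and 47.8 in senescent ones.

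Symbol families, which share their leading letters, gave a view that used no gene list, but some families were left out by choice. Among those left out were symbols starting with H, which include clustered histone genes, and with MT, which include the mitochondrial coding genes. The 32 kept clustered histone genes had a median of −4.48, below that of each family ranked, and 11 of the 13 mitochondrial genes were lower. Among the ranked families of 12 or more kept genes, ribosomal proteins had the lowest medians. Next came CDK, ZBTB and RBM symbols, at −0.94, −0.73 and −0.72. KIF genes, the kinesin motors, held 6 lower of 12. Zinc finger genes named ZNF, the largest family ranked with 138 genes, held 24 higher and 25 lower. DDX helicases and USP deubiquitinases were the evenest, with 0 lower and 1 higher of 15 and of 21. SLC carriers held 23 higher and 20 lower of 97, TMEM genes 16 higher and 9 lower of 74, and ATP genes, mostly pumps and ATP synthase parts, 9 higher and 3 lower of 41. ANKRD genes, which include ANKRD1, had 6 higher of 16. Each family is a description of these libraries and was not tested.

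The ratio went with the base composition of the lead coding transcript, taken from the library in which the gene was higher. That choice depends on the direction of the ratio, also in the centred values. The trend with leads of 1 fixed library was not computed. Genes whose lead coding transcript had under 40% GC had a median ratio of 0.47, with 24.8% higher and 10.2% lower. The median was lower at each further step, at 0.11, −0.14, −0.32, −0.53 and, at 60% GC or more, −0.74, where 9.41% were higher and 38.3% lower. Length went with it, from −0.41 for lead transcripts under 600 nt to 0.01 at 4000 nt or more. Among nuclear chromosomes, the lowest median was that of chromosome 19, at −0.55 with a median GC of 60.0%, and the highest that of chromosome 5, at 0.05 with 46.3%. The order did not follow GC strictly: chromosome 13, with the lowest GC of 43.7%, stood at −0.03 and chromosome 14, with 48.7%, at −0.31. After each gene was set against genes of like GC and length, a step chosen after seeing the data, 1084 were higher and 1033 lower. The part of composition in any single result was not tested, so list medians relative to all genes are given before and after centring. For hnRNP genes they were −0.80 and −0.97, for splicing factors −0.64 and −0.59, and for nucleolar genes −0.54 and −0.50. Mesenchymal factors stood at −1.57 and −1.31, and immediate early genes at −0.67 and −0.42.

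**Figure D5:**
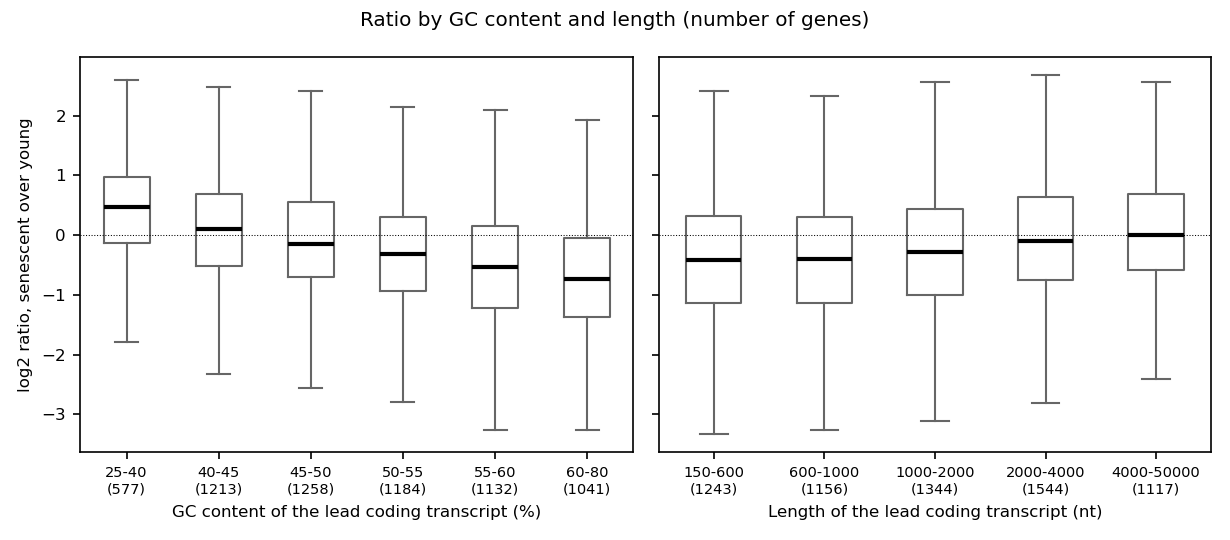
Boxes give the quartiles and median of the log2 ratio by GC content (left) and length (right) of the lead coding transcript. Whiskers reach 1.5 times the box height, and brackets hold the number of genes. The lead is taken from the library where the gene was higher. The medians descend from 0.47 to −0.74 over the GC steps and climb from −0.41 to 0.01 over the length steps.

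The lists of the 15 most abundant coding genes also differed. In the young library, 12 of the 15 highest genes were mitochondrial, and in the senescent library 2 were. These 2, MT-CYB and MT-ND1, were higher in the senescent library. The other 11 of the 13 mitochondrial coding genes were listed at 0 there, as given above, so the counts do not compare mitochondrial mRNA levels. The lists shared 4 genes, among them ACTB, or beta-actin, which reached 4530.4 FPKM in the young culture and 2964 in the senescent one. In the senescent library 11 of the 15 had a lead transcript under 600 nt, against 5 in the young. CALU, encoding the calcium-binding calumenin of the secretory pathway, was one of them and measured 59.3 FPKM in young cells and 1811 in senescent ones, with 86.9% of the latter in a transcript of 589 nt. PLCB4, a phospholipase C, stood at 413 FPKM in the young library against 2598 in the senescent one, its lead transcript having 484 nt. Over transcripts of 600 nt or more PLCB4 was listed at 0 in the young library and had 54.5 FPKM in the senescent one. CALU had a ratio of 4.91, or 2.12 with assembled transcripts and 1.98 over transcripts of 600 nt or more.

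The mitoplast libraries give a second senescent to young pair that shares no library with the whole cells. RNase digestion had been used there against RNA outside the inner membrane, and of 5373 coding genes kept there 17.5% were higher and 64.3% lower. The median mitoplast ratio was −2.12 over the 4282 genes kept in both pairs. Of 525 genes higher in whole cells, 70.7% had a mitoplast ratio above that median, and of 1039 lower genes 39.0% did, against 50.2% of the 2718 others and 50.0% of all by construction. Across these genes Pearson's r was 0.28 and Spearman's rho 0.23, and r was 0.27 over 2597 genes above 0 in all 4 libraries. Genes are not independent replicates and share their length and composition between pairs, and 1389 of these genes were listed at 0 in the senescent mitoplasts. Composition followed the same order there but less steeply, with medians 0.11 above that of all genes under 40% GC and 0.16 below it at 60% or more. Several of the extremes were on the same side of the median gene in both pairs: IGFBP7 was at 34.2 and 263 FPKM in young and senescent mitoplasts, and ITGBL1 at 1.66 and 30.8. ANKRD1 stood at 0.969 and 16.9 FPKM. COL6A2 was at 182 and 15.9, and CDC20 at 32.1 and 0.0290. Not all extremes were alike in both pairs. EDIL3, higher in senescent whole cells, had 8.63 FPKM in young mitoplasts and was listed at 0 in senescent ones.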

How the data were processed

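Total RNA of young and senescent WI-38 whole cells and mitoplasts was sequenced, 1 library per group, and grouped by the sample labels. The deposited tables give FPKM per transcript, made by the authors. Per the submitters' processing notes, TopHat2 2.0.14, Cufflinks 2.2.1, Cuffdiff and the build hg19 were named, with no role stated. The annotation release, the strand setting and any read filter are not stated. Each table holds 393483 transcripts, of which 207892 were assembled ones with no annotated identifier. Of 185591 annotated transcripts, 172595 (93.0%) were matched by identifier to GENCODE 29 for type and gene name, and 70125 were protein-coding. In 350 instances a table named a transcript differently from an earlier one, and the first name found was used. No read counts are in the tables, so depth is unknown and counting error cannot be given.

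FPKM was summed per gene, genes at 5 FPKM or more in either whole-cell library were kept, and log2 ratios took a pseudocount of 1 FPKM. A ratio of 1 in size was called. No test was run, since each group has 1 library. Named genes follow a rule: the 20 highest and 20 lowest ratios among genes at 10 FPKM or more, above 0 in both libraries and with a lead transcript of 600 nt or more, and in each list up to 3 highest and 3 lowest called members and the most abundant one. The rule also takes marker genes and the 15 most abundant genes of each library. Genes outside it, such as those named for a ratio near 0, were chosen after their values were seen. The members and all lists were chosen with earlier results of these data known. A few genes that this rule names are not reported here. Genes with near-identical copies, overlapping genes and antisense partners can share reads. Promoters came from RefSeq on GRCh38.p14 and were matched by symbol. Other pseudocounts, filters, scalings and sums of transcripts were tried, and centring by GC content and length, in 5 bins each, was added after seeing the data. GC content and length are those of the lead coding transcript in the library where the gene is higher. The calculation was tested on simulated data. Python 3.11.15, pandas 2.3.3, numpy 2.4.6 and matplotlib 3.10.9 were used.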

Additional observations from a re-analysis of the deposited data

Results flagged for a closer look

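A few results went opposite ways in whole cells and mitoplasts once each was set against the median gene of its own pair. In no case was the difference tested. Single genes were searched among the 20 highest and 20 lowest ratios, leaving out any listed at 0 in a mitoplast library. EDIL3, higher in senescent whole cells, was left out in this way, with 8.63 FPKM in young mitoplasts and a listed 0 in senescent ones. H1-4, low in senescent whole cells, had 88.2 FPKM in young and 46.6 in senescent mitoplasts, which is 1.21 above the mitoplast median on the log2 scale. DAB2IP, also low in senescent whole cells, had 0.873 and 34.0 FPKM there, 6.34 above that median. TNC, low in senescent whole cells too, had 9.10 and 4.65 FPKM there, 1.28 above it. The intermediate filament list, with a whole-cell median below that of all genes, lay 2.11 above the mitoplast median over its 6 genes kept in both pairs. Its most abundant gene, VIM, went the other way, with 4312 FPKM in young mitoplasts and a listed 0 in senescent ones.

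Outside the coding genes, transcripts assembled from the reads held 76.2% of all FPKM in senescent and 53.7% in young whole cells.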

How the results depend on the processing

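With 1 library per group, no library could be left out. No paired analysis was possible because each group has 1 library and the result comes from no test. Higher genes numbered 949 and lower ones 1509. Both a filter of 1 FPKM and no filter gave 1478 higher and 2142 lower, since no gene under 1 FPKM can reach a ratio of 1. The equal sum, mitochondrial genes included, gave 2274 higher and 818 lower. A median ratio of 0 gave 1276 and 1199, and an equal upper quartile 1220 and 1241. The other settings kept both counts within 1.5 times.

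Relative to the all-gene median, the mesenchymal factors stood at −1.57, and at −0.72 with a filter of 1 FPKM, −0.28 with none and −0.66 with assembled transcripts. Intermediate filaments stood at −0.85, and at −0.26 with no filter. The mitotic list stood at −2.36, and at −3.64 with a pseudocount of 0.1. The other 463 list values moved by less than 1.5 times. Of 39 lists, 13 lay below and 10 above the all-gene median under every setting tried.

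Of the 204 named genes with a ratio past 1, KRT19 and SNAP25 not counted, 200 kept the call over all annotated transcripts and 192 with assembled transcripts. The call was kept by 198 over transcripts of 600 nt or more, 178 under the equal sum and 184 after centring by GC content and length. For 56 of them at least 1 of the 3 sums moved the ratio by over 1.5 times. Signs reversed with assembled transcripts for GREM1, at 2.31, LTBP1, at −3.72, PDGFRB, at −0.20, and ZEB1, at −2.02. Over transcripts of 600 nt or more they reversed for LTBP1, at −0.17, and DUSP6, at −0.11. The cause was not tested.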
